A study of Mus musculus with 9 samples.

Results

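The Kruppel-like factors described here are 10 genes, Klf2, Klf3, Klf4, Klf6, Klf7, Klf9, Klf10, Klf11, Klf13 and Klf16, taken by symbol from a table of 14771 mouse genes. All 10 were in the table and all 10 had enough counts to be tested. They were selected on their measured differences between CON, LPS and SUR, above all a Klf10 that is lower with LPS and not in SUR. Their levels, fold changes and calls are therefore a description and support nothing further.

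The 9 RNA-seq libraries were made from MH-S, a virus-transformed mouse line that was derived from alveolar macrophages. The 3 SUR libraries carry the label suramin, a polyanionic drug that blocks purinergic receptors and the binding of many ligands, and the treatment protocol describes suramin at 200 µM only together with LPS at 1 µg/ml for 4 h. The 3 LPS libraries came from cells given 1 µg/ml lipopolysaccharide, the bacterial ligand of TLR4, for 4 h. The 3 CON libraries came from cells in medium, for which no time is listed. SUR is therefore read as suramin with LPS, although its own label names suramin without LPS, and suramin alone was not analysed here. All groups are 1 transformed line, and no label says that libraries of a group came from separate cultures, so the tests below measure the spread between these libraries, which may be technical.

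KLF proteins bind GC-rich and CACCC sequences through C2H2 zinc fingers near the C terminus and are relatives of the SP factors. Their other parts differ and recruit different partners. KLF2, KLF4, KLF6 and KLF7 belong to the group best known for activation and for binding acetyltransferases, KLF3 belongs to the group that recruits the corepressor CtBP, and KLF9, KLF10, KLF11, KLF13 and KLF16 belong to the group that recruits the corepressor SIN3A. In macrophages, KLF2 and KLF4 are known to restrain NF-kappaB-driven inflammatory genes, KLF6 is known to act with NF-kappaB on such genes, and many KLF mRNAs are short-lived and respond early to stimuli.

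Library totals ran from 15729402 to 16675250 counts. Libraries that carried the same number in different groups deviated together from their group means, and those numbered 1 deviated away from those numbered 2 and 3. CON libraries also differed among themselves in inflammatory transcripts: Cxcl10, a chemokine, was at 124.3, 26.4 and 0.536 CPM (a gene's counts scaled to library size and composition) in CON 1, 2 and 3. All 15 macrophage markers were in the table, 14 of them at 10 CPM or more on average, and their sum was 6790 to 9600 CPM in SUR, 7660 to 10800 in LPS and 7010 to 9530 in CON. Of 15 alveolar macrophage markers 11 were in the table; Fabp5, Mrc1, Csf2ra, Csf2rb and Cd9 were well detected, whereas the defining markers Siglecf, Marco, Pparg, Chil3 and Plet1 stayed at or below 0.576 CPM in every library, so the cells carried macrophage markers but not these alveolar ones. Markers of lung epithelium summed to at most 0.609 CPM and those of lymphocytes and neutrophils to at most 1.3 CPM, while the fibroblast and endothelial sum (91.8 to 242 CPM in SUR, 95.4 to 248 in LPS and 90.7 to 231 in CON) was nearly all Vwf.

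The letters upstream of 5 members are shown because these are among the members that stood higher with LPS (Klf6, Klf7) or higher in SUR than in LPS (Klf2, Klf3, Klf9). Each is the 250 bases before the RefSeq start of the gene in GRCm38.p6, read 5′ to 3′ on the gene's strand: Klf6 from chr13:5861239-5861488 (plus strand), Klf7 from chr1:64121390-64121639 (minus strand), Klf2 from chr8:72318812-72319061 (plus strand), Klf3 from chr5:64803271-64803520 (plus strand) and Klf9 from chr19:23140976-23141225 (plus strand). Capitals mark every match, on either strand, to any of 9 motifs named after the sequences.
Klf6: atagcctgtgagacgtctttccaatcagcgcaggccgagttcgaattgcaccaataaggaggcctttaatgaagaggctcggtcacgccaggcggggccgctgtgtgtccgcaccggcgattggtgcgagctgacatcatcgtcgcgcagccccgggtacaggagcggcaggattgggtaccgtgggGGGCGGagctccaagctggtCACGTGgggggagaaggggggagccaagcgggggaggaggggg
Klf7: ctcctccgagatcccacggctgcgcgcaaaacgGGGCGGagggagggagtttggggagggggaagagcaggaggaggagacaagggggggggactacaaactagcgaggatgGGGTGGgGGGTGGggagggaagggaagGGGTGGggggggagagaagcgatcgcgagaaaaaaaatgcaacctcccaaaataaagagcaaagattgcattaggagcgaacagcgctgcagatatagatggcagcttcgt
Klf2: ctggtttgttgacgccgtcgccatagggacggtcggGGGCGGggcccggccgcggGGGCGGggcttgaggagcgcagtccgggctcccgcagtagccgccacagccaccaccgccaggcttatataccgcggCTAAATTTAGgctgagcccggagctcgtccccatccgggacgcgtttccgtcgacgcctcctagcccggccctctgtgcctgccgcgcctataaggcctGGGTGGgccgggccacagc
Klf3: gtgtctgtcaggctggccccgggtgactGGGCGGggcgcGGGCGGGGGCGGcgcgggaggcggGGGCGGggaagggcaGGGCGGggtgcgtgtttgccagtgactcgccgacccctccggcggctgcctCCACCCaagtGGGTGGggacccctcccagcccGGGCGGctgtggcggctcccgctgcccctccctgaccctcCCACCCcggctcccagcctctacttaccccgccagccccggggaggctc
Klf9: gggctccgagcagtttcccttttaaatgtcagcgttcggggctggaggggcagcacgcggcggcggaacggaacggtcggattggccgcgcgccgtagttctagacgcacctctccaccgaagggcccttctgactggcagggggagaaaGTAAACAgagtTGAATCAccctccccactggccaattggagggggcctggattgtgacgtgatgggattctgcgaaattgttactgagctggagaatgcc

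Of the 10 members, 8 matched an entry in the promoter table of RefSeq; Klf10 and Klf16 had none. A GC box (GGGCGG), the letters that SP and KLF factors bind, was found in 7 of the 8, against 32.7% of 32851 promoters of the same length, and a CACCC box (CCACCC) in 4 of 8, against 28.1%. Klf3 held 6 GC boxes and 3 CACCC boxes, Klf7 1 GC box and 3 CACCC boxes, and Klf6 1 GC box that began 63 bases before the start. The GC share of the 8 windows ran from 59.2% to 78.4%, and motif counts were not corrected for it. An E-box (CACGTG) was found in Klf4, Klf6 and Klf11 (6.02% of all promoters); in Klf6 it began 43 bases before the start. The consensus site of MEF2, a factor known to drive Klf2 in endothelium, began 118 bases before the Klf2 start and was in no other of the 8 (2.92% of all). Klf9 alone held a FOXO motif (GTAAACA, 3.17% of all) and an AP-1-like motif (TGANTCA, with any base at the centre, 6.75% of all). The matching letters in Klf9 were TGAATCA. The cAMP response element TGACGTCA (1.55% of all), the consensus site of NF-kappaB (3.9%) and the CArG box (1.47%) had no match in the 8 windows. In the 5 printed windows no match overlapped another, and a match describes letters only. The table's own spans for Klf3 and Klf7 begin further upstream than these RefSeq starts, so for those genes the printed windows lie partly or wholly inside the span that was counted.

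Levels of different members are compared in the authors' FPKM, which are scaled for length. Klf6 was the most abundant member in SUR, at 79.7 ± 6.37 FPKM (SD, n = 3), and in LPS, at 184.6 ± 4.89 FPKM, and it was level with Klf13 in CON, at 38.6 ± 10.4 FPKM for Klf6 and 38.6 ± 4.45 FPKM for Klf13. Klf6 made up 31% ± 0.92 of the summed FPKM of the 10 members in SUR, 59.4% ± 2.33 in LPS and 20.9% ± 3.86 in CON (SD, n = 3 each). The sum itself was 257.4 ± 13.4 FPKM in SUR, 311.1 ± 13.9 in LPS and 182.6 ± 17.6 in CON. The family's message was thus mostly Klf6 in LPS and spread over more members in the other groups.

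In SUR the order below Klf6 was Klf13 (47 FPKM), Klf2 (41.7), Klf3 (25.2), Klf16 (24.6), Klf10 (15.1), Klf9 (9.03), Klf7 (8.53), Klf4 (5.11) and Klf11 (1.37). Libraries of Klf13 and Klf2, of Klf3 and Klf16, and of Klf9 and Klf7 overlapped, so those neighbours were not separated. In LPS the order below Klf6 was Klf13 (28.7 FPKM), Klf2 (25.9), Klf7 (20.8), Klf16 (20.6), Klf3 (15.3), Klf4 (5.95), Klf9 (5.04), Klf10 (3.24) and Klf11 (1.01), with overlap between each neighbour from Klf13 down to Klf16 and between Klf4 and Klf9. In CON it was Klf16 (25.7 FPKM), Klf2 (24.6), Klf3 (21.1), Klf10 (14.6), Klf9 (7.61), Klf4 (5.69), Klf7 (5.39) and Klf11 (0.807) below Klf6 and Klf13, with overlap from Klf16 to Klf3 and between Klf4 and Klf7. Klf7 thus stood 8th of 10 in SUR, 4th in LPS and 9th in CON, whereas Klf10 stood 6th in SUR, 9th in LPS and 6th in CON. The authors' TPM gave the same order in each group.

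**Figure D1:**
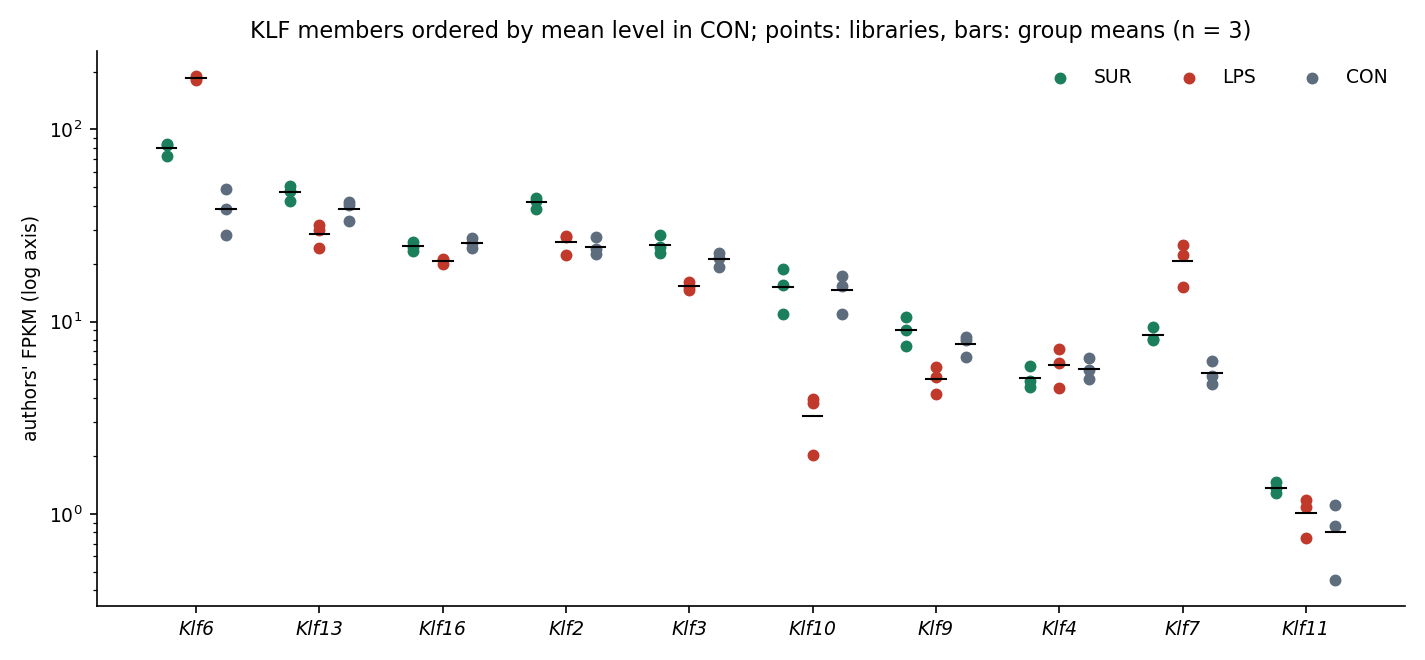
Level of each member in the authors' FPKM on a log axis, with a point for each library, a bar at the mean of 3 libraries, and SUR, LPS and CON from left to right within a member. Klf6 in LPS (184.6 FPKM on average) lies above every other value, Klf10 in LPS (3.24) lies apart from Klf10 in SUR and CON, and Klf11 lies lowest in all groups.

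A gene is called below when edgeR's quasi-likelihood test gave a Benjamini-Hochberg adjusted p under 0.05 over the 11281 genes tested. In LPS against CON 4 of the 10 members were called, Klf6 and Klf7 higher and Klf3 and Klf10 lower, where 18.3% of all tested genes were called (8.98% higher and 9.36% lower). The choice of members used all 3 contrasts, so nothing is read from these shares. In SUR against LPS 7 of 10 were called, Klf2, Klf3, Klf9, Klf10 and Klf13 higher and Klf6 and Klf7 lower, where 17.2% of all tested genes were called (9.29% higher and 7.93% lower). In SUR against CON 2 of 10 were called, Klf2 and Klf6, both higher, where 0.425% of all were called (0.39% higher and 0.0355% lower). The members' median log2 fold change was 0.01 in LPS against CON, 0.42 in SUR against LPS and 0.30 in SUR against CON, beside medians of -0.009, -0.006 and -0.009 over all tested genes. LPS libraries enter both of the first comparisons and SUR libraries both of the last, so their values are not independent of each other.

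With the library number as a block, 7 members were called in LPS against CON (Klf9, Klf13 and Klf16 in addition, all lower), where 41.8% of all tested genes were called (20.1% higher and 21.7% lower). In that fit 8 members were called in SUR against LPS (Klf4 in addition, lower), where 45.3% of all were called (22.6% higher and 22.7% lower), and 7 in SUR against CON (Klf2, Klf3, Klf6, Klf7, Klf9, Klf11 and Klf13, all higher), where 11.5% of all were called (7.37% higher and 4.18% lower). The 2 calls of SUR against CON depended on single libraries: both were lost when any 1 of the libraries CON 2, CON 3, LPS 2, LPS 3, SUR 1, SUR 2 or SUR 3 was left out (0 called), Klf6 was also lost without LPS 1 (1 called), and both were lost in a fit of those groups alone (0 called). Without the 3 libraries numbered 1, Klf2, Klf6, Klf7 and Klf13 were called (4 called, and 5.19% of all genes tested in that fit). Groups did not overlap for 6 members in LPS against CON, 2 higher and 4 lower (of all tested genes 32%, 15.2% higher and 16.8% lower). They did not overlap for 8 in SUR against LPS, 6 higher and 2 lower (of all 34.9%, 17.8% higher and 17.2% lower), and for 5 in SUR against CON, all higher (of all 15%, 8.35% higher and 6.67% lower).

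**Figure D2:**
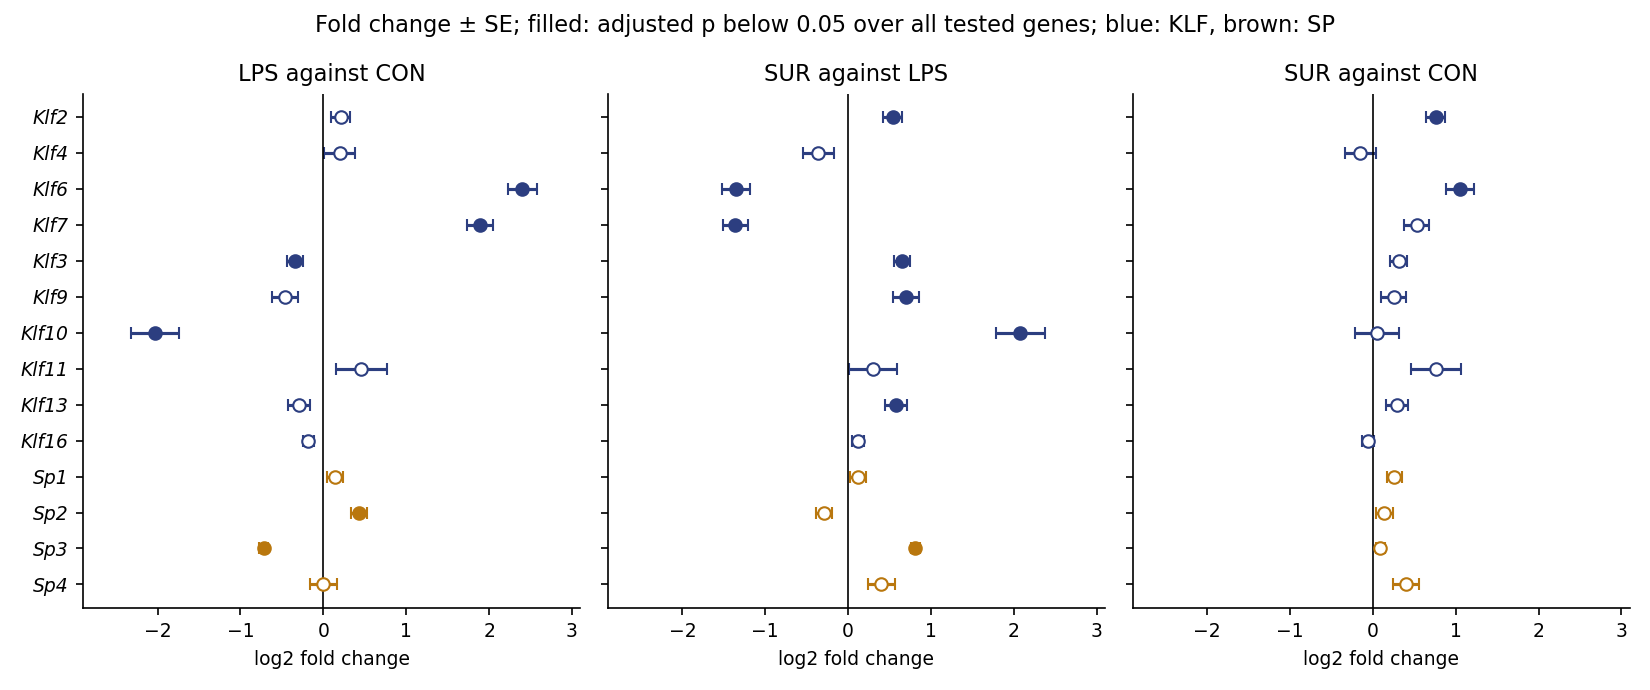
Log2 fold change with its SE, calculated back from the test statistic, for the 10 members (blue) and the 4 tested SP genes (brown). Panels show LPS against CON, SUR against LPS and SUR against CON, with filled points for adjusted p under 0.05 over all tested genes. Klf6 and Klf7 lie right of 0 in the first panel and left of 0 in the second, Klf10 lies at -2.03 and 2.08, and Klf10 lies near 0 in the third panel.

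Among the activator group, Klf6 and Klf7 were the members that rose with LPS. Klf6 (gene ID 23849, chr13:5861489-5870393), a zinc-finger factor known to work with NF-kappaB in macrophages, had 316.5, 320.8 and 278 CPM in SUR libraries 1 to 3, 765.9, 804.5 and 759.8 CPM in LPS and 186.6, 149.2 and 107.1 CPM in CON. The groups did not overlap in any pairing, with LPS highest, SUR between and CON lowest. In bulk RNA, fewer cells making a message and less message per cell cannot be told apart, here and below. Klf6 was 5.26-fold higher in LPS than in CON (log2 2.40, SE 0.177), 2.55-fold lower in SUR than in LPS (log2 -1.35, SE 0.171) and 2.07-fold higher in SUR than in CON (log2 1.05, SE 0.17). Among CON libraries Klf6 was highest in CON 1 and lowest in CON 3, as were Cxcl10 and Tnf (403.7, 92.1 and 22.2 CPM in CON 1, 2 and 3), and the part of that difference in the Klf6 values was not tested. Between same-numbered libraries the log2 difference of LPS over CON was 2.04, 2.43 and 2.83, and that of SUR over LPS was -1.27, -1.33 and -1.45.

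Klf7 (gene ID 93691, chr1:64029448-64122345), a broadly expressed factor best known from neuronal development and blood progenitors, had 44.9, 40.9 and 44.3 CPM in SUR, 85.0, 121.1 and 127.2 CPM in LPS and 33.7, 29.5 and 26.9 CPM in CON. Its groups did not overlap either and lay in the order of Klf6, and LPS 1 was the lowest LPS library. Klf7 was 3.7-fold higher in LPS than in CON (log2 1.89, SE 0.153) and 2.56-fold lower in SUR than in LPS (log2 -1.36, SE 0.15). SUR stood 1.44-fold above CON (log2 0.53, SE 0.151), which was called with the library number as a block and without the libraries numbered 1 (log2 0.60) but not otherwise. Klf7 has a limit in its counting: the deposited row lists it on the plus strand, GENCODE places Klf7 on the minus strand, and Gm26649 and Gm13748 overlap it on the other strand. Without a stated strand setting, reads of these genes cannot be told apart from Klf7's.

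Klf2 (gene ID 16598, chr8:72319062-72321654), known to hold macrophages and endothelium quiescent, behaved differently from Klf6 and Klf7. It had 65.2, 58.4 and 63.4 CPM in SUR, 36.2, 46.4 and 45.7 CPM in LPS and 41.0, 36.2 and 33.4 CPM in CON. All SUR libraries lay above all others, whereas LPS and CON overlapped. Klf2 was 1.46-fold higher in SUR than in LPS (log2 0.54, SE 0.113) and 1.69-fold higher than in CON (log2 0.76, SE 0.113), with LPS over CON at log2 0.21 (SE 0.114). The last value rested on which libraries were taken: library 1 gave -0.18 and libraries 2 and 3 gave 0.36 and 0.45, and without the libraries numbered 1 the difference was 0.42 and was called.

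Klf4 (gene ID 16600, chr4:55527137-55532475), known to favour alternative activation of mouse macrophages, was low in all groups. It had 13.0, 16.0 and 12.3 CPM in SUR, 13.3, 21.6 and 18.1 CPM in LPS and 13.5, 17.5 and 14.9 CPM in CON, and all groups overlapped. The log2 difference was 0.20 (SE 0.188) for LPS over CON, -0.36 (SE 0.189) for SUR over LPS and -0.15 (SE 0.189) for SUR over CON. SUR over LPS was called lower only with the library number as a block (log2 -0.35) and without the libraries numbered 1 (log2 -0.50).

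**Figure D3:**
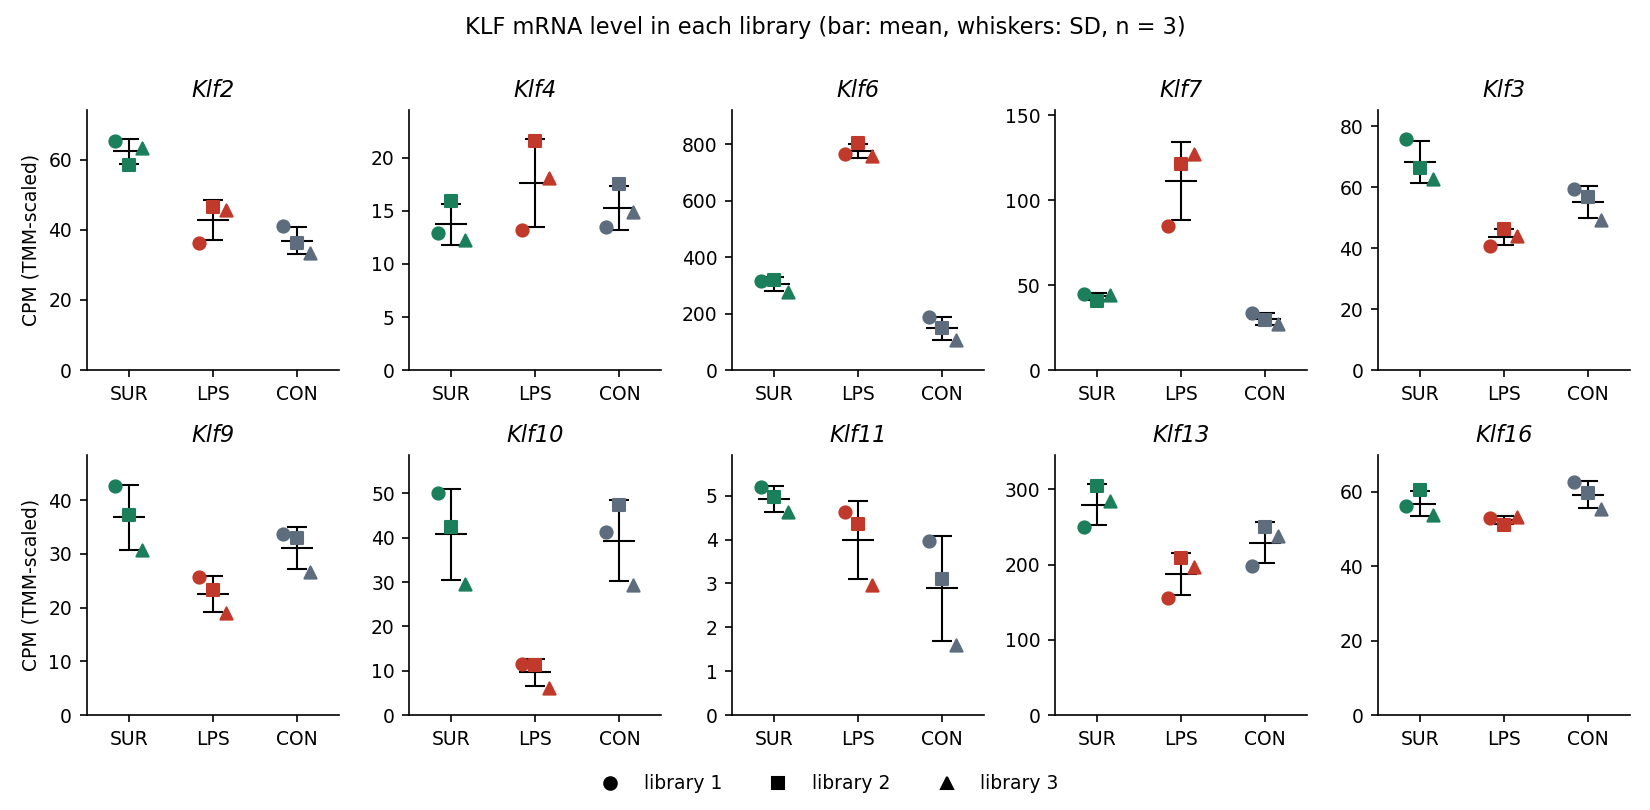
CPM of each member in each library (symbols give the library number), with the mean and SD of 3 libraries per group; each panel has its own axis from 0, and SUR, LPS and CON run from left to right. Klf6 and Klf7 are highest in LPS, Klf10, Klf9 and Klf3 are lowest in LPS, Klf2 is highest in SUR, and Klf4 overlaps in all groups.

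The CtBP group was represented by Klf3 (gene ID 16599, chr5:64803316-64832641), a repressor known from B cells, red cells and fat. Klf3 had 75.9, 66.2 and 62.8 CPM in SUR, 40.8, 46.3 and 43.8 CPM in LPS and 59.3, 56.8 and 49.2 CPM in CON. The groups did not overlap, with SUR highest and LPS lowest. It was 1.57-fold higher in SUR than in LPS (log2 0.65, SE 0.0989), a call kept in all 17 alternatives, and SUR stood at log2 0.31 (SE 0.0979) over CON, called only with the block. The lower level in LPS than in CON (log2 -0.34, SE 0.099) lost its call in 11 of 17 alternatives, among them without CON 1, CON 2, LPS 1, LPS 2, LPS 3, SUR 2 or SUR 3, with values from -0.46 to -0.22. Gm20033 overlaps Klf3 on the other strand.

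In the SIN3A group, 1 of 5 members was called in LPS against CON, where 18.3% of all tested genes were called, and 3 of 5 in SUR against LPS, where 17.2% were; the choice of members used these contrasts. Klf10 (gene ID 21847, chr15:38291464-38300711), first described as a TGF-beta-inducible early gene and a repressor that limits growth, had the largest fold changes of the 5 in LPS against CON and in SUR against LPS. It had 50.2, 42.4 and 29.7 CPM in SUR, 11.6, 11.3 and 6.07 CPM in LPS and 41.3, 47.4 and 29.4 CPM in CON. Every LPS library lay below every SUR and CON library, and SUR and CON overlapped. The deposited counts behind these values were 870, 717 and 507 in SUR, 183, 166 and 92 in LPS and 708, 778 and 493 in CON. Klf10 was 4.07-fold lower in LPS than in CON (log2 -2.03, SE 0.293) and 4.21-fold higher in SUR than in LPS (log2 2.08, SE 0.293), both called in all 17 alternatives, and SUR over CON was log2 0.05 (SE 0.27). The library numbered 3 was the lowest of each group, and same-numbered libraries gave log2 differences of -1.82, -2.06 and -2.25 for LPS over CON and 2.10, 1.90 and 2.27 for SUR over LPS.

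Klf11 (gene ID 194655, chr12:24651371-24662782), the closest relative of Klf10 and also TGF-beta-inducible, did not share its pattern. It was the least abundant member, with 5.19, 4.97 and 4.62 CPM in SUR, 4.63, 4.36 and 2.97 CPM in LPS and 3.97, 3.11 and 1.61 CPM in CON. SUR lay above CON without overlap, and LPS overlapped CON and, by 1 library, SUR. The log2 difference was 0.46 (SE 0.305) for LPS over CON, 0.30 (SE 0.295) for SUR over LPS and 0.76 (SE 0.30) for SUR over CON, and only the last was called, and only with the block (log2 0.78).

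Klf9 (gene ID 16601, chr19:23141226-23168129), a glucocorticoid- and thyroid hormone-responsive factor with a daily rhythm, moved in the direction of Klf10 by smaller steps. It had 42.7, 37.1 and 30.7 CPM in SUR, 25.6, 23.2 and 19.0 CPM in LPS and 33.7, 32.9 and 26.6 CPM in CON. LPS lay below both other groups without overlap, and SUR and CON overlapped. Klf9 was 1.63-fold higher in SUR than in LPS (log2 0.70, SE 0.156), a call lost without LPS 3 (log2 0.59) or SUR 2 (log2 0.68). LPS over CON was log2 -0.46 (SE 0.156) and was called only in 4 alternatives, the block among them.

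Klf13 (gene ID 50794, chr7:63886351-63938915), known to drive late Ccl5 expression in activated T cells, was the second most abundant member in FPKM. It had 250, 303.9 and 284.6 CPM in SUR, 155.6, 209.3 and 196.5 CPM in LPS and 198.4, 250.3 and 238.2 CPM in CON. SUR lay above LPS without overlap, CON overlapped both, and library 1 was the lowest of each group. Klf13 was 1.49-fold higher in SUR than in LPS (log2 0.58, SE 0.133), a call lost without SUR 2 (log2 0.50) or SUR 3 (log2 0.57). Its difference was log2 -0.29 (SE 0.132) for LPS over CON and 0.29 (SE 0.132) for SUR over CON. Both were called with the block and without the libraries numbered 1 (log2 -0.26 and 0.27). LPS over CON was also called by limma on FPKM (log2 -0.43). Gm27252 and E030018B13Rik overlap Klf13 on the other strand.

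Klf16 (gene ID 118445, chr10:80567121-80577296), a repressor of GC-rich promoters, differed by narrow steps. It had 56.0, 60.6 and 53.9 CPM in SUR, 52.9, 51.1 and 53.1 CPM in LPS and 62.6, 59.8 and 55.3 CPM in CON. LPS lay below both other groups by narrow gaps. The log2 difference was -0.18 (SE 0.0703) for LPS over CON, 0.12 (SE 0.0703) for SUR over LPS and -0.06 (SE 0.07) for SUR over CON. The first was called with the block, with upper-quartile scaling (log2 -0.27) and by limma on FPKM (log2 -0.31). The second was called only by limma on FPKM (log2 0.25).

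**Figure D4:**
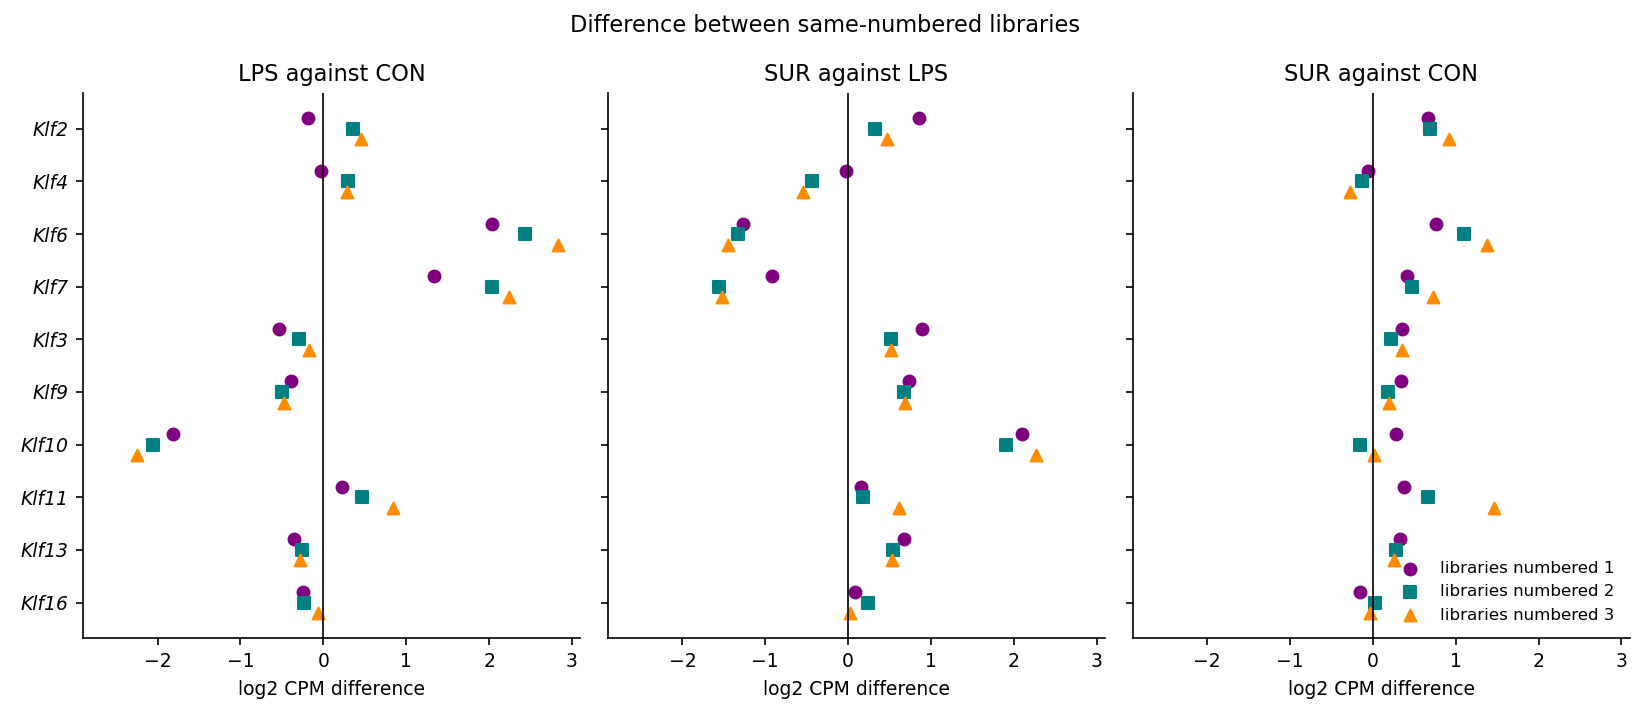
Log2 CPM difference between libraries that carry the same number, for each member in LPS against CON, SUR against LPS and SUR against CON. In the first panel the pairs of each member lie on the same side of 0, except for Klf2 and Klf4. For these 2, library 1 lies across 0 from libraries 2 and 3. In the second panel the pairs of every member lie on the same side of 0, some of them close to it.

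Over the 9 libraries the log2 CPM of Klf6 and Klf7 had a Pearson correlation of 0.96, that of Klf9 and Klf10 0.93, that of Klf3 and Klf9 0.90 and that of Klf7 and Klf10 -0.90. These are descriptions over libraries that share 3 treatments and paired numbers. For Klf4 the values ran from -0.52 (Klf9) to 0.47 (Klf7).

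The genes whose log2 CPM was most like Klf10 over the 9 libraries, among 7766 tested genes of sufficient level, were Dbt (r = 0.983), an enzyme subunit of branched-chain amino acid breakdown, Txnip (0.981), the thioredoxin-interacting arrestin, Gpam (0.977), a glycerol-3-phosphate acyltransferase, Slc30a1 (0.973), a zinc exporter, and Rab14 (0.973), a small GTPase of membrane traffic. Their steps differed in size. Txnip had 473, 500 and 402 CPM in SUR, 137, 116 and 98.1 CPM in LPS and 423, 481 and 344 CPM in CON, a step near that of Klf10, while Rab14 had 204, 206 and 194 CPM in SUR, 178, 172 and 171 CPM in LPS and 206, 209 and 200 CPM in CON. The genes most like Klf6, the member with the largest rise in LPS against CON, were Rhob (r = 0.997), a small GTPase, Rel (0.994), an NF-kappaB subunit, Btg1 (0.994), an antiproliferative factor, Arl5b (0.994), an ARF-like GTPase, and Bcl10 (0.993), a signalling adaptor. Rel had 94.8, 88.4 and 87.6 CPM in SUR, 314, 314 and 317 CPM in LPS and 63.9, 40.7 and 29.8 CPM in CON, so, like Klf6, it lay between the other groups in SUR.

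**Figure D5:**
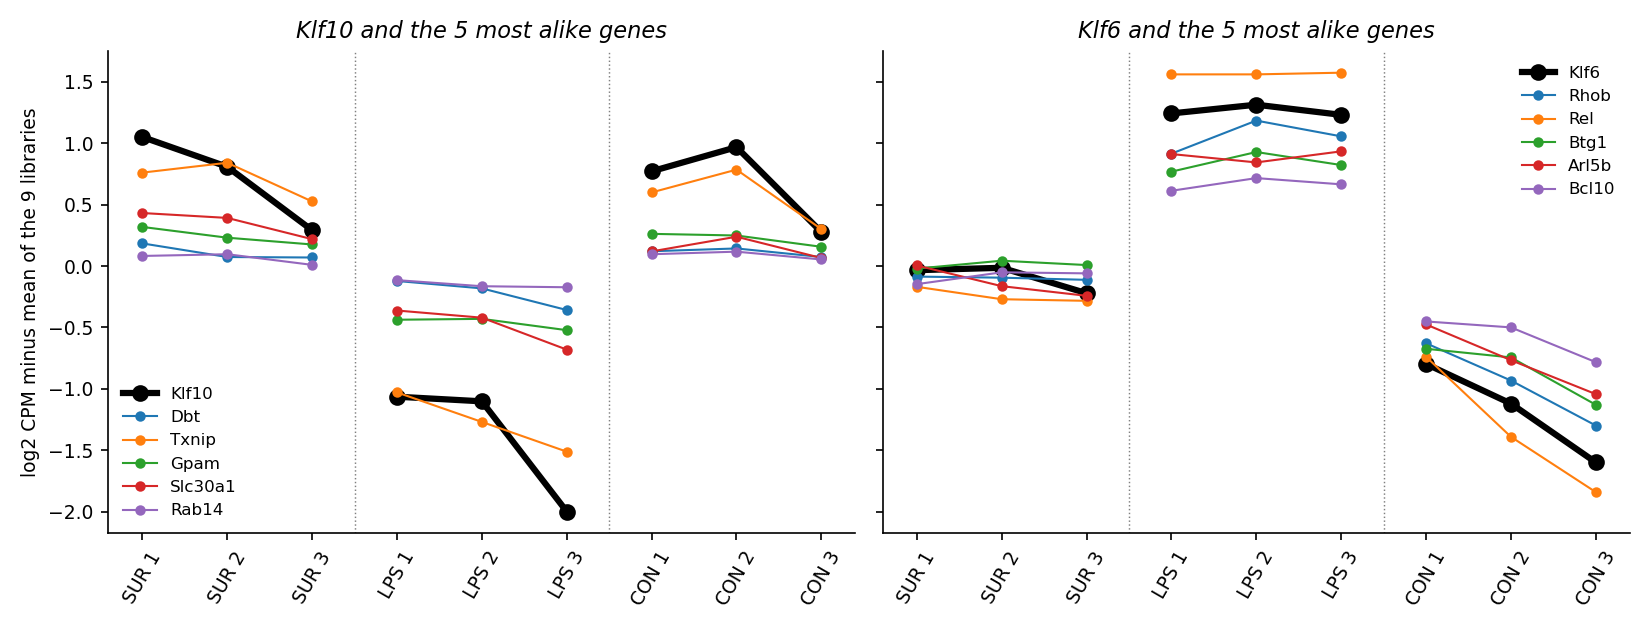
Log2 CPM minus the mean of the 9 libraries for Klf10 (left, black) and Klf6 (right, black) with the 5 genes most correlated with each; libraries run SUR, LPS, CON and lines join libraries of a group only. All 6 curves on the left are lowest in LPS and all 6 on the right are highest in LPS, with SUR between LPS and CON on the right.

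Among the relatives outside the 10, 4 of 7 other KLF genes were in the table and only Klf12 was tested, at 1.93 ± 0.326 CPM in SUR, 1.72 ± 0.374 in LPS and 1.41 ± 0.318 in CON (SD, n = 3 each), with no call in any comparison. Of 9 SP genes, which bind the same GC boxes, 5 were in the table and 4 tested. Sp3, an SP factor that activates or represses by context, had 110.6, 112.4 and 107 CPM in SUR, 64.2, 59.4 and 64.8 CPM in LPS and 102.5, 102.1 and 105.1 CPM in CON. It fell with LPS (log2 -0.72, SE 0.0568, adjusted p = 7.46e-05, edgeR) and was higher in SUR than in LPS (log2 0.81, SE 0.0568, adjusted p = 1e-04, edgeR), in all 17 alternatives, while SUR over CON was log2 0.09 (SE 0.0561). Sp2 rose with LPS (log2 0.43, SE 0.1, adjusted p = 0.0168, edgeR), a call lost without CON 2, CON 3 or LPS 1 and by limma on FPKM (log2 0.29, adjusted p = 0.0776). Sp1 was at 148.9 ± 8.33 CPM in SUR, 137.1 ± 13.4 in LPS and 124.3 ± 11.3 in CON, and Sp4 at 12.4 ± 1.58 CPM in SUR, 9.36 ± 0.688 in LPS and 9.38 ± 1.83 in CON. In SUR against CON edgeR, DESeq2 and limma each called 0 of 4, against 2 at an unadjusted p under 0.05. The share of all genes at that unadjusted threshold is not given, so this count has no background. With the block 2 were called (Sp1, log2 0.26, and Sp4, log2 0.40). The block also called Sp1 higher in LPS against CON, and Sp1 and Sp4 higher and Sp2 lower in SUR against LPS.

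The genes around the family were taken from 11 lists with 124 tested genes in all. Of these, 31 were higher and 20 lower in LPS against CON, 22 higher and 22 lower in SUR against LPS, and 1 higher (Sgk1) and 0 lower in SUR against CON. In the last comparison 23 were higher and 4 lower at an unadjusted p under 0.05. The share of all genes at that threshold is not given, so such counts, here and below, have no background. DESeq2 called 0 to 2 genes per list, where it called 259 of the 11281 tested genes. limma called genes in the glucocorticoid list alone (2), where it called 42 of all tested genes. The block called 0 to 5 per list. List medians below stand beside all-gene medians of -0.009 for LPS against CON and -0.006 for SUR against LPS. List counts stand beside shares called over all tested genes. These were 8.98% higher and 9.36% lower in LPS against CON, and 9.29% and 7.93% in SUR against LPS. With the block they were 20.1% and 21.7%, and 22.6% and 22.7%. In SUR against CON they were 0.39% and 0.0355%, and 7.37% and 4.18% with the block. The lists were chosen with earlier results known, so nothing is read from these shares.

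Of 16 partner genes of KLF proteins, 2 rose and 2 fell with LPS (median log2 0.05), and 2 were higher and 1 lower in SUR than in LPS (median -0.10). Sap30, a subunit of the SIN3A complex, averaged 48 ± 9.23 CPM in SUR, 128 ± 21.9 in LPS and 42.5 ± 18.8 in CON (log2 1.59 for LPS over CON, adjusted p = 0.00435; log2 -1.41 for SUR over LPS, adjusted p = 0.00915, edgeR). Fhl3, a LIM cofactor of KLF3, averaged 110 ± 10.1 CPM in SUR, 72.6 ± 8.77 in LPS and 116 ± 20.6 in CON. The acetyltransferase gene Ep300 averaged 164 ± 0.475 CPM in SUR, 116 ± 6.23 in LPS and 152 ± 8.48 in CON. Fhl3 fell by 0.68 and Ep300 by 0.39 on the log2 scale with LPS, and they were higher in SUR than in LPS by log2 0.60 and 0.50. Sin3a rose slightly (log2 0.26, SE 0.0704, adjusted p = 0.0325, edgeR). With the block 4 rose and 2 fell in LPS against CON, and 2 were higher and 6 lower in SUR against LPS. Only 1 rose without CON 2, CON 3, LPS 2 or LPS 3, and only 1 was higher in SUR than in LPS without LPS 1, LPS 3, SUR 2 or SUR 3, while 2 were lower without CON 1 or LPS 1. Of 9 genes for KLF protein turnover, Vhl and Fbxo32, both parts of ubiquitin ligases, fell with LPS (log2 -0.88 and -0.87) and were higher in SUR than in LPS (log2 0.77 and 1.12). With the block 3 rose and 2 fell in LPS against CON, and 2 were higher and 3 lower in SUR against LPS.

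The signals known to feed single members showed mixed counts. Of 11 genes of the ERK5 and MEF2 route to Klf2 and Klf4, 1 was called in LPS against CON, Hdac5, a MEF2-binding deacetylase (log2 -0.34, SE 0.0788, adjusted p = 0.017, edgeR), a call lost without CON 2, LPS 2 or LPS 3. In that comparison DESeq2 and limma each called 2 lower and 0 higher, and the block called 3 higher and 2 lower. SUR against LPS gave 0 calls by edgeR against 2 higher at an unadjusted p under 0.05, 0 by DESeq2, 3 higher by limma, and 3 higher and 1 lower with the block. Of 10 tested FoxO factors and targets, 3 rose (Bcl6, log2 1.74; Ccng2, 1.27; S1pr1, 0.63) and 4 fell (Pik3ip1, -1.55; Sesn1, -1.17; Foxo1, -0.51; Foxo4, -0.41) with LPS. In SUR against LPS 4 were higher (Pik3ip1, log2 1.60; Sesn1, 1.41; Foxo1, 0.73; Foxo3, 0.66) and Bcl6 was lower (-1.59), with 5 higher and 3 lower in the block and 2 lower without CON 1 or SUR 1. S1pr1, a lymphocyte egress receptor gene that KLF2 is known to activate, averaged 41.2 ± 7.26 CPM in SUR, 57.4 ± 2.33 in LPS and 37 ± 7.53 in CON. The log2 difference of S1pr1 in SUR over LPS was -0.48 (SE 0.16) and was not called by edgeR without the block. A link between S1pr1 and Klf2 was not tested.

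For the TGF-beta input to Klf10 and Klf11, 4 of 17 tested genes rose and 1 fell with LPS (median log2 0.04). Among those that rose were Skil, at 471 ± 44.4 CPM in LPS and 85.4 ± 26.1 in CON (log2 2.46, adjusted p = 8.1e-05, edgeR), Smad7 (log2 1.18) and Tgif1 (0.89), which encode brakes on SMAD signalling; the receptor gene Acvr1b fell (-0.70). With the block 6 rose and 3 fell. In SUR against LPS 3 were higher (Acvr1b, log2 0.75; Smad3, 0.51; Tgfbr1, 0.51) and 3 lower (Skil, -1.62, and Smad7, -0.87, among them), around a median of 0.03, with 4 higher and 5 lower in the block and 1 higher without SUR 2.

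Of 5 tested genes of the glucose-sensing MondoA and ChREBP list, Arrdc3 and Txnip, both arrestin-domain genes, fell with LPS (log2 -2.33 and -1.83, adjusted p = 8.1e-05 and 0.00011, edgeR) and were higher in SUR than in LPS (log2 2.18 and 1.97, adjusted p = 0.000254 and 0.000211, edgeR). The factors Mlxip and Mlx themselves were at log2 0.01 and 0.03 for LPS over CON and 0.13 and -0.18 for SUR over LPS. With the block 4 were higher and 1 lower in SUR against LPS. Of 11 glucocorticoid receptor genes and targets, the setting in which Klf9 is best known, Dusp1 (log2 4.01), Sgk1 (2.95), Errfi1 (2.40) and Per1 (0.45) rose and Tsc22d3 (-1.53) fell with LPS. In SUR against LPS Tsc22d3 was higher (log2 1.44) and Errfi1 (-1.84), Sgk1 (-1.43) and Per1 (-0.32) were lower. With the block 4 rose and 2 fell in LPS against CON, and 2 were higher and 4 lower in SUR against LPS. Tsc22d3, which encodes the glucocorticoid-induced leucine zipper, had 29.2, 53.4 and 51 CPM in SUR, 10.5, 20.3 and 18.5 CPM in LPS and 27.8, 53.3 and 60.7 CPM in CON, with library 1 the lowest of each group; its call was lost in LPS against CON without CON 2 or CON 3, and in SUR against LPS without LPS 1, LPS 3, SUR 2 or SUR 3. Sgk1 was also higher in SUR than in CON (log2 1.53, SE 0.237, adjusted p = 0.0393, edgeR), a call lost when any 1 library other than CON 1 was left out. Of 16 tested clock genes 4 rose and 4 fell with LPS and 4 were higher and 3 lower in SUR than in LPS, with Nfil3 (log2 1.67 and -1.27) and Bhlhe40 (1.03 and -0.82) in one direction and Nr1d1 (-0.80 and 1.19) in the other, and 2 were higher in SUR than in LPS without SUR 2.

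Genes known as outputs of the family came next. All 11 tested inflammatory genes known to be repressed by KLF2 or KLF4 rose with LPS (median log2 4.16), and 9 of 11 were lower in SUR than in LPS (median -3.10), with 10 lower in the block. DESeq2 called 9 higher in LPS against CON and 8 lower in SUR against LPS. limma on FPKM called 11 higher and 6 lower in those comparisons. Il1b averaged 19.4 ± 9.51 CPM in SUR, 194 ± 85.6 in LPS and 2 ± 2.31 in CON, and Il6 averaged 14.2 ± 4.69 CPM in SUR, 213 ± 34.8 in LPS and 7.06 ± 8.98 in CON. Il12b, at 0.116 ± 0.0569 CPM in SUR, 4.89 ± 0.26 in LPS and 0.0584 ± 0.101 in CON, was close to no counts outside LPS, so no fold is given. Cxcl10 averaged 74.6 ± 18.1 CPM in SUR, 1350 ± 61.6 in LPS and 50.4 ± 65.3 in CON (log2 4.75 for LPS over CON, adjusted p = 0.0213; log2 -4.18 for SUR over LPS, adjusted p = 0.0343, edgeR). Ccl5, a known KLF13 target in T cells, was log2 4.06 higher in LPS than in CON and -4.14 in SUR over LPS. The 2 that edgeR did not call in SUR against LPS were Tnf (log2 -0.62, SE 0.758) and Ptgs2 (log2 -2.20, SE 0.768). Both spread widely among CON libraries (Ptgs2 at 41.1, 6.51 and 1.97 CPM in CON 1, 2 and 3). Tnf had 1326, 1159 and 1597 CPM in SUR, 1932, 2002 and 2352 CPM in LPS and 403.7, 92.1 and 22.2 CPM in CON. Ptgs2 had 109.4, 63.2 and 95.0 CPM in SUR and 523.2, 319.7 and 389 CPM in LPS. For both genes the groups did not overlap, with SUR between LPS and CON. The list's median in SUR against CON was 1, with 5 of the 11 called higher in the block.

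A list of genes linked to KLF2 or KLF4 holds mostly genes reported to depend on them, and also Hif1a, the hypoxia factor gene that KLF2 is known to restrain in myeloid cells. Of its 12 tested genes, 2 rose (Cdkn1a, log2 1.16; Hif1a, 0.62) and 2 fell (Thbd, -2.05; Cdkn1b, -1.08) with LPS, and in SUR against LPS, which shares the LPS libraries, 2 were higher (Thbd, 2.33; Cdkn1b, 1.07) and 2 lower (Cdkn1a, -0.71; Hif1a, -0.55). Thbd, the anticoagulant receptor thrombomodulin that KLF2 is known to induce, was near the detection limit, at 1.58 ± 0.423 CPM in SUR, 0.307 ± 0.0391 in LPS and 1.3 ± 0.511 in CON. With the block 4 were higher and 2 lower in SUR against LPS. A list of cell-cycle genes linked to KLF4, KLF6, KLF10 and KLF11 mixes opposite roles: the inhibitors Cdkn1a and Cdkn1b, the drivers of proliferation Myc, Ccnd1, Ccnd2 and Ccne1, and Max, Mxd1 and Mxd4, partners or antagonists of MYC. Of these 9 tested genes, 3 rose (Myc, log2 3.92; Mxd1, 1.49; Cdkn1a, 1.16) and 2 fell (Cdkn1b, -1.08; Ccnd1, -0.60) with LPS, so inhibitors and drivers were found in both directions. In SUR against LPS 3 were higher (Cdkn1b, log2 1.07; Mxd4, 0.46; Ccnd1, 0.44) and 2 lower (Myc, -2.83; Cdkn1a, -0.71). The cell-cycle inhibitor Cdkn1a, a known target of KLF4 and KLF6, averaged 456 ± 18 CPM in SUR, 747 ± 57.5 in LPS and 334 ± 28.7 in CON. Its groups lay in the order of Klf6, and a link between Cdkn1a and Klf6 was not tested. Myc averaged 1.08 ± 0.54 CPM in SUR, 7.67 ± 4.07 in LPS and 0.499 ± 0.203 in CON. It was near the detection limit in SUR and CON, so its folds rest on few counts. LPS 1 had 2.98 CPM, below LPS 2 and LPS 3 (10.1 and 9.9 CPM). Ccnd1, the cyclin D1 gene, averaged 221 ± 3.21 CPM in SUR, 163 ± 9.22 in LPS and 247 ± 27.2 in CON. With the block 3 rose and 4 fell in LPS against CON.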

How the data were processed

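RNA sequencing of 9 MH-S libraries was read from 1 deposited gene table. Reads were aligned by the authors with HISAT2 2.0.4 to GRCm38 (mm10), per the submitters' processing notes. How reads were assigned to genes, with which annotation and strand setting, is not given in the sources used here. Per the file headers, the table holds the authors' expected counts, not normalized, of which 93.4% were whole; all were rounded for the tests. It also holds FPKM, scaled by the authors for length and depth, and TPM, deposited as a further length-scaled unit and used to check the order of members. The authors' log2 fold changes and their DESeq2 p-values and q-values, named in the file headers, were not used.

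edgeR 4.0.16 (R 4.3.3) kept 11281 genes by filterByExpr and left 3490 untested, with at least 99.965% of counts in tested genes. TMM factors ran from 0.934 to 1.04. All 9 libraries entered 1 quasi-likelihood fit without covariates, and p was adjusted by Benjamini-Hochberg over those genes, with a threshold of 0.05. DESeq2 1.42.0 and limma 3.58.1 (log2(FPKM + 0.1)) were alternatives. Groups came from the sample labels.

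Library numbers are shared between groups by the labels' titles. Same-numbered libraries correlated at 0.435 to 0.801 in their deviations from group means, in all 9 pairs. The highest value between different numbers was 0.437 (LPS 3 with SUR 2, beside 0.586 for LPS 3 with SUR 3). Libraries numbered 1 were thus set clearly apart, and those numbered 2 and 3 much less from each other. The numbers were taken to pair libraries, with that limit. Blocked values are given where they change the call of a KLF or SP gene or move a list count by more than 1.5 times.

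The members, the gene lists and the rules were chosen with earlier results of these data known. Of each list, up to 4 called genes per comparison with the largest change are named, and listed genes named beyond these were chosen after their values were seen; Klf10 and the member with the largest LPS-against-CON change are given the 5 most correlated genes whose mean log2 CPM reached 4. Lists share some genes. Promoters came from RefSeq (GRCm38.p6), strands from GENCODE. Scripts were tested on simulated counts. KLF protein sequences were not analysed here, and 1 called gene of the TGF-beta list is not reported here.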

Additional observations from a re-analysis of the deposited data

How the results depend on the processing

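The direction of every call among the KLF and SP genes was the same under all 17 alternatives, and the calls of Klf6, Klf7, Klf10 and Sp3 in LPS against CON and in SUR against LPS, and those of Klf2 and Klf3 in SUR against LPS, were kept in each of them. The log2 fold change ran from -2.20 to -1.78 for Klf10 and from 2.21 to 2.62 for Klf6 in LPS against CON, and from 1.83 to 2.26 and from -1.40 to -1.21 in SUR against LPS. With the replicate block, which uses the pairing by number, 4714 genes were called in LPS against CON (2069 without it), 5109 in SUR against LPS (1943) and 1302 in SUR against CON (48), and 7, 8 and 7 members against 4, 7 and 2; members not named beside their block value kept their call. Without the libraries numbered 1 the counts were 3415, 3391 and 587 genes, with 4 members in SUR against CON. In SUR against CON, DESeq2 called 259 genes, and a fit of those groups alone called 4 genes and 0 members. limma on FPKM called 7 members in LPS against CON, where it called 2735 of the 11281 tested genes (2069 by edgeR). Leaving out 1 library at a time gave 1379 (without CON 3) to 2075 genes and 3 to 4 members in LPS against CON, 1208 (without SUR 2) to 2054 genes and 5 to 7 members in SUR against LPS, with 1255 genes without SUR 3, and 0 (without CON 2) to 168 (without CON 1) genes and 0 to 2 members in SUR against CON. The causes of these shifts were not tested. Scaling moved the balance of calls: LPS against CON gave 1013 higher and 1056 lower genes with TMM, 765 and 1709 with upper-quartile scaling and 679 and 2056 with FPKM, and SUR against LPS gave 1048 and 895, 1595 and 616, and 1970 and 505. FPKM moved the median of all genes by -0.137 in LPS against CON and by 0.138 in SUR against LPS. Of 765 fold changes of single genes under alternatives, 8 moved by more than the spread between replicates, 5 upward and 3 downward, and of 1122 list counts 121 moved by more than 1.5 times, 90 upward and 31 downward. Counts limit Klf11 and Klf12, the least abundant tested members of the family.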
